A study of Mus musculus with 10 samples.

Results

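Among the tumor cells of E0771 mammary tumors, 2655 cells were chosen by their UMIs (unique molecular identifiers, each standing for 1 captured RNA molecule) of 5 genes, the chemokine genes Ccl2, Ccl7 and Cxcl1, the NF-kB inhibitor gene Nfkbia and the kinase gene Plk2. They are called the Ccl2 and Nfkbia tumor cells here. They made up 5.16% of the 51413 tumor cells and 4.07% of the 65298 barcodes that held 200 to 7000 genes and at most 10% mitochondrial UMIs. A tumor cell held at least 3 UMIs of Cdh13, Pvt1, Esx1, Fmnl2 and Aebp1 together and none of the immune genes Ptprc, C1qa, C1qb, C1qc, Csf1r and Skap1. A chosen cell held at least 3 UMIs of the 5 genes, fewer than 3 of the proliferation genes Mki67, Top2a, Cenpe, Cenpf, Kif11 and Anln, and fewer than 3 of 9 interferon-induced genes (Ifit1, Ifit2, Ifit3, Rsad2, Usp18, Herc6, Ddx60, Gbp3 and Parp14). They were described against 34514 reference tumor cells, which met the same limits and held no UMI of the 5 genes. Of 3462 tumor cells with at least 3 such UMIs, 590 were over the limit on proliferation genes, 279 over that on interferon-induced genes and 62 over both.

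E0771 is a mouse mammary carcinoma line, grown in C57BL/6 females that were 16 weeks old when the cells were injected into the fourth mammary fat pad, and the tumors were taken after 21 days and profiled by droplet-based 3′ single-cell RNA sequencing. The KO mice carried AGO1 flox/flox and VE-cadherin-Cre (Cdh5-cre), which deletes AGO1, an Argonaute protein of the microRNA machinery, in endothelial cells, and the WT mice were their littermates, whose alleles beyond that label were not given. There were 5 WT and 5 KO libraries, 1 of each in batch 1 and 4 of each in batch 2, and the KO libraries 2+3 and 5+6 each pooled 2 tumors. The injected cells came from 1 line and were not themselves knocked out, so Ago1 in them does not check the genotype labels. It stood at 5.04 to 7.30 CPM (counts per 1000000 UMIs) in the tumor cells of the KO libraries and 4.85 to 6.57 in those of the WT libraries. Ago1 gave 0 UMIs in the 16 barcodes with at least 3 endothelial marker UMIs, so that the deletion could not be checked in the cells that carried it.

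NF-kB is a family of transcription factors held in the cytoplasm by IκB proteins, and inflammatory cytokines, microbial products and cell damage release it. Nfkbia encodes IκBα, which binds NF-kB and is itself an NF-kB target, so that its transcript rises when the pathway is active and its protein then shuts the pathway off. Ccl2 and Ccl7 draw monocytes through the receptor Ccr2, Cxcl1 draws neutrophils through Cxcr2, and in tumors such chemokines are made by cancer cells, fibroblasts and macrophages. Plk2 is a polo-like kinase induced by stress and by p53.

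Genes were located on mm10. Ccl2 lies on chromosome 11 (chr11:82035571-82037453, plus strand), and Ccl7 (chr11:82045712-82047525, plus strand) starts 8.26 kb beyond its end. Cxcl1 lies at chr5:90891241-90893115 (plus strand), Nfkbia at chr12:55489410-55492647 (minus strand) and Plk2 at chr13:110395046-110400844 (plus strand). Because NF-kB target genes often hold κB sites near their starts, the 250 bases before the RefSeq start (GRCm38.p6) were searched on both strands for the letters GGNNTTTCC, a κB-like pattern that reads GGAAANNCC on the other strand. Of the 13 genes looked up, namely the 5 genes of the rule and 8 NF-kB pathway or target genes that lead the values below (Tnip1, Nfkbiz, Relb, Nfkb1, Rel, Ier3, Csf1 and Hif1a), 8 had a window in the RefSeq table and 5 of those held a match (Nfkbia, Cxcl1, Ier3, Csf1 and Rel). Plk2, Tnip1 and Hif1a held no match to these letters. The Tnip1 window holds the stretch gggaattccc, which these letters do not cover, and other κB-like patterns were not searched. Over all 32851 windows of that length, 4.93% held a match. The genes looked up were picked by the rule or as leading NF-kB genes of these data, so this is a description with no test. Windows are shown for Nfkbia and Cxcl1, which belong to the rule, and for Ier3, an early response gene outside it, written from 5′ to 3′ on the strand of the gene with each match in capitals.
Nfkbia (chr12:55492648-55492897, minus strand): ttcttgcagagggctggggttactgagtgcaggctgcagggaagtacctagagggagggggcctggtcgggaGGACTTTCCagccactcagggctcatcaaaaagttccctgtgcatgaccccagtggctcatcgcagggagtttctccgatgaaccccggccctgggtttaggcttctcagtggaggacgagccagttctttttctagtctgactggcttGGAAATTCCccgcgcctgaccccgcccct
Cxcl1 (chr5:90890995-90891244, plus strand): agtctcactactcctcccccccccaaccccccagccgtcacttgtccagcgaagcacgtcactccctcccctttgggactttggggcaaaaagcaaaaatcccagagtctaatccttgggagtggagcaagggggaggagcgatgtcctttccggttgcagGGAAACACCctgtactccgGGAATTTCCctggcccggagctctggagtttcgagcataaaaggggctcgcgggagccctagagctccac
Ier3 (chr17:35821463-35821712, plus strand): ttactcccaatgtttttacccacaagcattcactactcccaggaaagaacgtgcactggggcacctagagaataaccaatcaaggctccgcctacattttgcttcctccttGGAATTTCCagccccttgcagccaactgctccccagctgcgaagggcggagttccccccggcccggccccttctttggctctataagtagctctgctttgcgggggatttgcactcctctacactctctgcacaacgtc
The matches were GGACTTTCC and GGAAATTCC for Nfkbia, GGAAACACC and GGAATTTCC for Cxcl1 and GGAATTTCC for Ier3. A match is a stretch of letters and was not tested as a binding site.

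The libraries held 8323896 to 10591577 UMIs each over all barcodes. Batch 1 stood apart from batch 2 in depth, in composition and in how the rule acted on it. Its chosen cells held a median of 10894.5 UMIs in WT and 12637 in KO, against 821 to 1659 in the batch 2 libraries. Mitochondrial genes gave 2.62% and 2.33% of the UMIs of its chosen cells against 0.137% to 0.629% in batch 2, and Actb gave 1.44% and 2.22% against 7.92% to 18.1%. The immune genes removed 21.5% and 20.3% of its E0771-like barcodes, those with at least 3 UMIs of the 5 tumor genes, but 1.23% to 3.32% in batch 2. A fixed minimum of 3 UMIs is reached more easily in a deep cell, so shares of batch 1 and batch 2 are not on 1 scale. Batch 1 gave 104 chosen cells and batch 2 gave 2551. No barcode was a chosen cell in 2 libraries. Doublets were not called, and 2.00% of the chosen cells had a barcode that was also within the limits in another library, against 1.63% of all barcodes within the limits.

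The rule chose 12.5% of the tumor cells of WT and 11.5% of those of KO in batch 1. Its choice in batch 2 was 3.37%, 6.41%, 3.85% and 3.91% in WT replicates 1, 3, 4 and 5, and 4.98%, 9.19%, 4.67% and 5.97% in KO replicates 1, 2+3, 4 and 5+6. The groups overlapped over both batches and within batch 2, where WT 3 lay above 3 of the 4 KO libraries. The 95% Wilson intervals, which cover counting error only, ran from 3.01 to 3.77% at WT 1 and from 8.39 to 10.1% at KO 2+3. KO libraries had a mean share of 7.26% ± 2.96 (SD, n = 5) and WT libraries one of 6.01% ± 3.82 (SD, n = 5), a difference of 1.25 percentage points (two-sided exact permutation of labels within batches, p = 0.30, smallest possible p = 0.0143). Within batch 2 the difference was 1.82 points (exact permutation, p = 0.20, n = 4 per group), and in the single pair of batch 1 it was -1.02 points. Across libraries, p-values measure the spread between these tumors. Within batches, the difference fell to 0.404 points without KO 2+3, the pooled library with the highest share of batch 2.

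**Figure D1:**
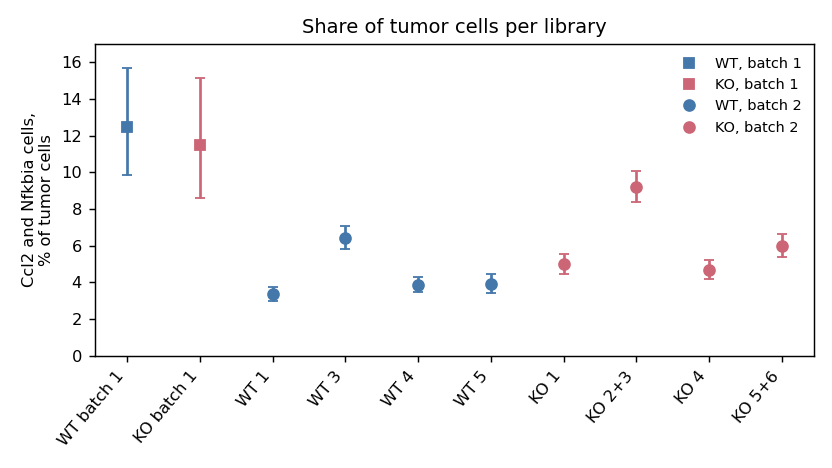
Share of tumor cells that met the rule (y axis, %) in each library (x axis). Squares stand for batch 1 and circles for batch 2, blue for WT and red for KO, and bars are 95% Wilson intervals; the 2 squares lie above all circles, and the blue and red circles overlap.

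Thinning the UMIs of the 5 genes in each tumor cell to a depth of 1000 UMIs turned the order of the batches. Of the thinned cells, 2.28% and 1.97% held at least 2 UMIs of the 5 genes within the other limits in the WT and KO libraries of batch 1, against 4.51% to 11.7% in batch 2. Before thinning the same cells gave 16.6% and 17.7% against 8.83% to 16.1%, and all tumor cells, shallower ones included, gave 16.3% and 17.2% against 6.38% to 15.1%. The thinned shares left out 13 and 10 shallower cells in batch 1 and 1758 to 6430 per library in batch 2. The limits on proliferation and interferon-induced genes were not thinned and acted at full depth. Of tumor cells with at least 3 UMIs of the 5 genes, before thinning, these limits left out 69.0% in batch 1 and 18.4% in batch 2. The thinned shares are thus not wholly on 1 depth, and the part of the limits in their order was not tested. The KO minus WT difference of the thinned shares was 1.19 points (exact permutation within batches, p = 0.40, n = 5 per group).

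Ccl2 gave most of the UMIs that chose the cells, and its part differed between the batches. Over all chosen cells, 82.1% of the UMIs of the 5 genes were Ccl2, 12.2% Nfkbia, 4.66% Plk2, 0.758% Ccl7 and 0.327% Cxcl1. In batch 2 Ccl2 gave 85.2% and Nfkbia 10.2%, while in batch 1 Nfkbia gave 43.6% and Ccl2 33.0%. Ccl7 and Cxcl1 gave 55 and 6 UMIs in the 2551 cells of batch 2 and 47 and 38 in the 104 cells of batch 1. A Ccl2 UMI was present in 95.6% of the chosen cells, a Nfkbia UMI in 36.4% and a Plk2 UMI in 15.7%. Ccl2 was the sole gene of the 5 in 1399 cells, or 52.7%, of which 2 were in batch 1. A chemokine UMI stood together with Nfkbia or Plk2 in 1114 cells, and 106 cells held no chemokine UMI. In batch 2 Ccl2 was seen in 96.8% of the cells and Nfkbia in 34.5%, while in the deeper cells of batch 1 Ccl2 was seen in 66.3% and Nfkbia in 82.7%. The highest Ccl2 count in 1 cell was 35 UMIs, and 147 cells held at least 10. At the edge of the rule, 1018 chosen cells held exactly 3 UMIs of the 5 genes, 76.2% of them Ccl2, and 2068 cells just outside it held 2, 65.0% of them Ccl2.

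**Figure D2:**
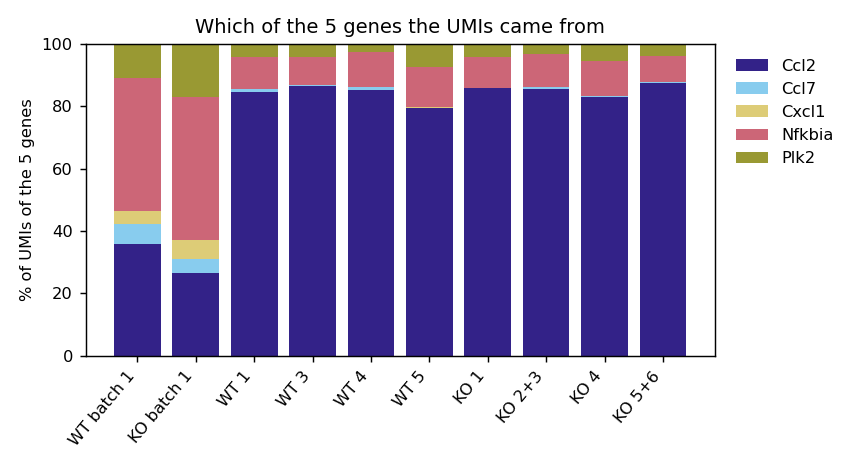
Share of the UMIs of the 5 genes that came from each gene (y axis, %), summed over the chosen cells of each library (x axis). Ccl2 gives 33.0% over the 2 libraries of batch 1 and 85.2% over those of batch 2, and Nfkbia gives 43.6% and 10.2%.

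Levels are given in CPM with Actb left out of the total, and a 3′ tag counts molecules without regard to gene length. Ccl2 stood at 311 CPM in the chosen cells of WT batch 1 and at 4358, 4692, 4433 and 2359 CPM in WT 1, 3, 4 and 5. It stood at 128 CPM in KO batch 1 and at 4872, 4557, 4024 and 4336 CPM in KO 1, 2+3, 4 and 5+6. The batch 1 libraries were far below the others, WT 5 was the lowest of batch 2, and WT and KO overlapped. Nfkbia stood at 369, 531, 477, 588 and 384 CPM in WT batch 1, 1, 3, 4 and 5 and at 222, 548, 567, 542 and 418 CPM in KO batch 1, 1, 2+3, 4 and 5+6. Its 2 lowest values were KO batch 1 and WT batch 1, and the groups overlapped. Plk2 ran from 81.7 to 261 CPM with a median of 200.3 CPM, lowest in the 2 libraries of batch 1. Ccl7 ran from 0 CPM in WT 5 to 56.8 CPM in WT batch 1. Cxcl1 was at most 4.48 CPM in batch 2 and at 36.3 and 29.2 CPM in batch 1. Since the rule sets these genes to 0 in the reference cells, no ratio of chosen to reference cells is given for them.

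Ccl2 was not particular to these cells among the cells of the tumors. Over all tumor cells it stood at 115 to 753 CPM with a median of 441, and 17.1% of them held a UMI, at a median over libraries of 804 UMIs per cell. Macrophages, 266 of 273 of which were in batch 1, held 1604 and 1056 CPM of Ccl2 in the WT and KO libraries of batch 1, which is above the tumor cells chosen on it there. Fibroblasts, 237 in all, held a median of 607 CPM, with a UMI in 13.5%. T cells, which are not known to make Ccl2 in quantity, gave 1 Ccl2 UMI in 124 cells, and 0 of 54 in batch 2, which allows a share of cells with a UMI of up to 5.56% and sets no limit on cells that express the gene, at a median over libraries of 326.5 UMIs per cell. Barcodes of up to 50 UMIs, which stand for free RNA, held 109 to 253 CPM of Ccl2. In batch 1 the chosen cells stood at 128.4 CPM against 129.1 CPM of free RNA in KO, and at 310.9 against 147 CPM in WT. The rule itself places the chosen cells above the range of free RNA at the depth of batch 2, so all tumor cells were set against the free RNA of their own library. In the 8 libraries of batch 2 tumor cells stood higher in Ccl2, at 229.5 to 753 CPM. In batch 1 they did not, at 139.7 against 147 CPM in WT and 115 against 129 CPM in KO. Nfkbia in all tumor cells was below free RNA in WT 1 (91.0 against 134.9 CPM) and WT 5 (89.9 against 119.2 CPM). Plk2 was below it in WT 1 (45.9 against 50.5 CPM), WT 4 (61.5 against 81.0 CPM) and WT 5 (55.7 against 65.8 CPM). In the other libraries each of these 2 genes was above it, Nfkbia least in WT 4 (139.7 against 137.2 CPM).

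The 5 genes were read against each other by leaving each one out of the rule in turn. Cells with at least 3 UMIs of the other 4 genes were compared with cells that held none of those 4, on the log2 scale of CPM plus 20, with the reference cells weighted to the same depths. Ccl2, read in the 266 cells chosen without it, stood at a median of 1167 CPM against 283 CPM, a median log2 ratio of 2.17, and was higher in 10 of 10 libraries. Nfkbia, read in 2209 cells, stood at 287 against 85.9 CPM, a median log2 ratio of 1.47, again higher in 10 of 10 libraries. Plk2 had a median log2 ratio of 0.74 and was higher in 9 of 10, Ccl7 one of 0.66 in 8 of 10, and Cxcl1 one of 0.24 in 7 of 10 libraries. Each gene was read against the sum of the other 4, and no pair of genes was read alone. Of the cells chosen without Ccl2, 17 to 49 per library, 36.0% (KO 4) to 73.7% (KO 1) held a Ccl2 UMI, against 10.2% to 24.4% of the cells with none of the other 4. In the cells chosen without Ccl2, depth was higher too, with a median of 1529.5 UMIs against 729 in the cells that held none of the 4, and its part beyond the weights was not tested.

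**Figure D3:**
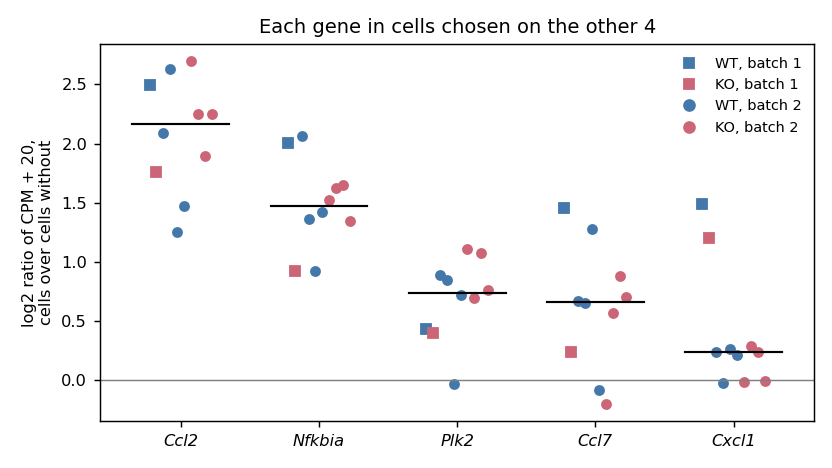
Log2 ratio (y axis) of each gene between cells with at least 3 UMIs of the other 4 genes and cells with none of them, by gene (x axis). Each point is 1 library, squares for batch 1 and circles for batch 2, blue for WT and red for KO, and lines are medians; all 10 points lie above 0 for Ccl2 and Nfkbia, and 7 of 10 do for Cxcl1.

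The gene with the largest difference from the reference cells outside the rule was Gm17268, a predicted gene that overlaps Ccl2. It spans chr11:82028224-82038562 on the minus strand and has 2 short exons of 31 and 35 bases, so that the whole of Ccl2 lies inside its intron on the opposite strand. Gm17268 stood at 205, 4832, 5119, 3680 and 2658 CPM in the chosen cells of WT batch 1, 1, 3, 4 and 5, and at 93.4, 5062, 5644, 4346 and 5027 CPM in those of KO batch 1, 1, 2+3, 4 and 5+6. In the reference cells weighted to the same depths it stood at 12.6 to 112 CPM in 9 libraries and at 0 CPM in KO batch 1, where the weights left out the 1 of 38 cells that held its 7 UMIs. Without weights the reference cells stood at 14.5 to 146 CPM, and at 26.4 CPM in KO batch 1. It followed Ccl2, low in batch 1 and high in batch 2, and its ranges in chosen and reference cells overlapped only through KO batch 1. Summed over the chosen cells it gave 12023 UMIs beside 11044 of Ccl2. Per Ccl2 UMI it gave 1.10 UMIs in the chosen cells of batch 2, 0.677 in those of batch 1 and 0.315 in cells of batch 1 with at least 3 UMIs of the immune genes and none of the tumor genes. Of the batch 2 cells chosen, 91.3% held a Gm17268 UMI, and 2320 of 2328 such cells held a Ccl2 UMI as well. In the batch 2 reference cells, which by rule held no Ccl2 UMI, 1917 of 34414, or 5.57%, held a Gm17268 UMI. Whether strand was used in counting was not given in the sources used here, and without it reads of the overlapping genes cannot be told apart, so Gm17268 is not a gene independent of Ccl2, although it is 1 of the genes counted next.

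After Gm17268, Tnip1, a regulator of NF-kB, had the largest median difference among the genes that were higher in every library. Over 4762 genes outside the rule with at least 100 UMIs in the chosen cells and a level of at least 50 CPM when chosen and reference cells are added up (median over libraries), 72 genes, or 1.51%, were higher than in the reference cells in 10 of 10 libraries and 42 genes, or 0.882%, were lower in 10 of 10. In batch 2 alone 170 were higher and 212 lower in 8 of 8 libraries, so that the balance of higher to lower turned. The median log2 ratio over the 4762 genes was -0.04. The contrast is that of the rule and the minimum of UMIs in the chosen cells favors genes that are high there, so these values are a description with no test. The chosen cells were deeper than the reference cells in every library, and reference cells were weighted to the same depths.

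Tnip1 encodes ABIN-1, a ubiquitin-binding protein that restrains NF-kB together with A20. Its level in the chosen cells was 136, 323, 441, 552 and 257 CPM in WT batch 1, 1, 3, 4 and 5 and 91.4, 406, 444, 443 and 333 CPM in KO batch 1, 1, 2+3, 4 and 5+6. In the reference cells it was 49.7, 102, 135, 174 and 125 CPM in the same WT libraries and 28.6, 156, 172, 130 and 135 CPM in the same KO libraries. Each chosen value was above its own reference value, WT 5 had the smallest ratio and the WT and KO ratios overlapped. The median log2 ratio was 1.28 ± 0.22 (SD over 10 libraries), with 0.94 at the lowest and 1.63 at the highest. Tnip1 was graded along the rule, with medians of 123 CPM at 0 UMIs of the 5 genes, 214 CPM at 1 or 2 and 369 CPM in the chosen cells, here without depth weights. Tumor cells over the limit on proliferation genes with 0 UMIs of the 5 genes stood at 139 CPM, and those over the limit on interferon-induced genes at 159 CPM.

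Of the 23 listed NF-kB pathway genes, 11 passed the minimum and 5 were higher in 10 of 10 libraries, with none lower in 10 of 10, against 1.51% of all genes higher. Beside Tnip1 these were Nfkbiz (median log2 ratio 0.82), which encodes the atypical inhibitor IκBζ, Relb (0.42) and Rel (0.35), which encode NF-kB subunits, and Nfkb1 (0.42), which encodes the p105 precursor of p50. The kinase genes Chuk (-0.18), Ikbkb (0.16) and Ikbkg (-0.21) of the complex that marks IκB for degradation did not differ in 1 direction, and neither did Map3k14 (-0.12), Tab2 (-0.13) and Traf2 (0.21). The median over the 11 genes was 0.21. Tnfaip3, which encodes A20, had 125 UMIs in the chosen cells and a summed level under the minimum, and it was higher in 10 of 10 libraries (0.93). Of 40 listed NF-kB target genes outside the rule, 10 passed the minimum and 3 were higher in 10 of 10, against the same 1.51%, namely Ier3 (0.75), Csf1 (0.64), the macrophage growth factor gene, and Hif1a (0.36). The median over these 10 was 0.23. Tnfaip2 was higher in 9 of 10, Sod2 (0.09) in 7 of 10 and Bcl2l1 (-0.13) in 3 of 10.

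**Figure D4:**
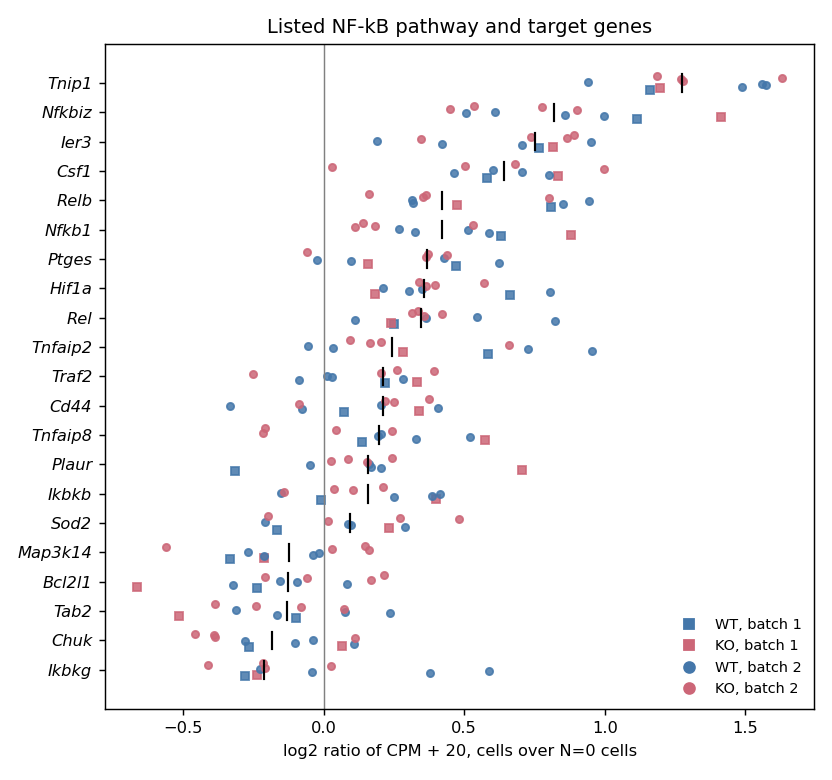
Log2 ratio of CPM plus 20 between chosen and reference cells (x axis) for the 21 listed NF-kB pathway and target genes that passed the minimum (y axis). Each point is 1 library, squares for batch 1 and circles for batch 2, blue for WT and red for KO, and black lines are medians; Tnip1 lies farthest from 0, and 8 of the 21 genes lie above 0 in all 10 libraries.

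Of 43 listed immediate early genes, 24 passed the minimum and 5 were higher in 10 of 10 libraries, against 1.51% of all genes, namely the AP-1 subunit genes Junb (0.71), Fosb (0.47) and Fosl2 (0.31), the MAP kinase phosphatase gene Dusp1 (0.48) and the antiproliferation gene Btg1 (0.33). Junb stood at 60.6 to 121 CPM in the chosen cells of batch 2 and at 246 and 268 CPM in batch 1. Tumor cells over the limit on interferon-induced genes with 0 UMIs of the 5 genes were close to the chosen cells in some genes, with medians over libraries of 83.2 against 82.9 CPM for Junb, 61.9 against 64.3 CPM for Csf1 and 143 against 149 CPM for Col5a3. Fos (0.41), Klf4 (0.36), Klf6 (0.33), Jund (0.27) and Myc (0.69) were higher in 9 of 10. The median over the 24 genes was 0.23.

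Among the other genes higher in 10 of 10 libraries, the leading ones were Rnf19b (median log2 ratio 0.96), a ubiquitin ligase gene, Stx11 (0.86), a membrane fusion gene, Dlc1 (0.82), St3gal1 (0.81), a sialyltransferase gene, and Casp4 (0.74), the caspase that senses cytosolic lipopolysaccharide. Dlc1 owed its spread to KO batch 1, with a log2 ratio of 2.38 against 0.12 to 1.13 in the batch 2 libraries. Fyb (0.71), Pim1 (0.69), a cytokine-induced kinase gene, Spp1 (0.66), which encodes osteopontin, Ifrd1 (0.65), the noncoding Gm17250 (0.64), Col5a3 (0.64), Bhlhe40 (0.63) and Fhod3 (0.63) followed. Pim1 had the smallest spread of these (SD 0.10), and it stood at 109 and 136 CPM in batch 1 and 873 to 2186 CPM in batch 2. Spp1 ran from 0.02 in KO 4 to 1.85 in WT batch 1. The 10 named genes lower in 10 of 10 had small differences, from Slc9b1 (-0.42), Ell (-0.42) and Ahcyl2 (-0.41) through Lin54 (-0.35), Coro1c (-0.34), Senp2 (-0.33), Ppp4r1 (-0.31), Yeats2 (-0.31) and Sppl3 (-0.31) to Usp48 (-0.31).

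**Figure D5:**
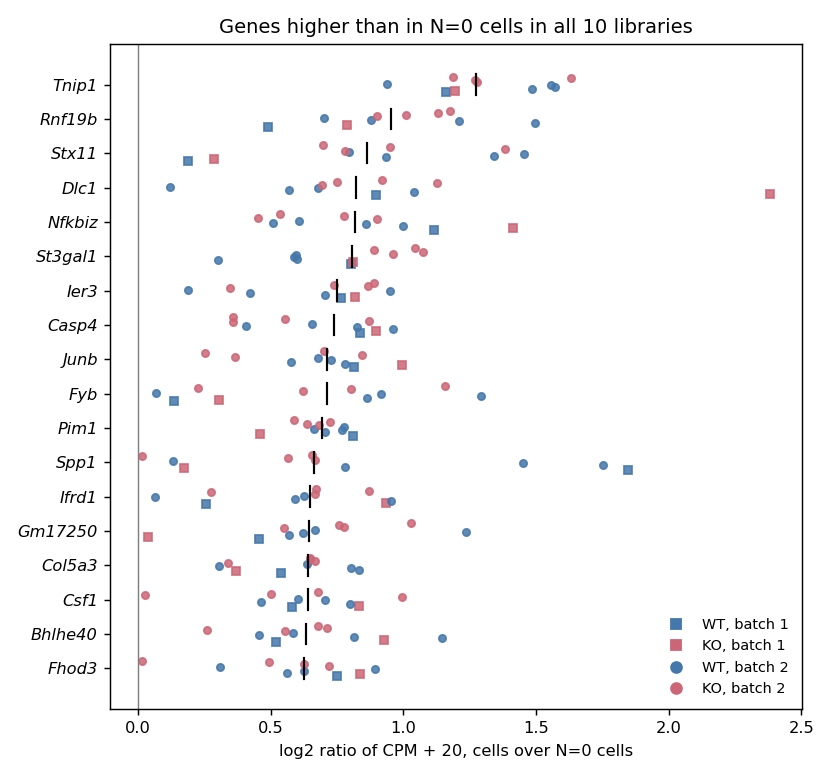
Log2 ratio of CPM plus 20 between chosen and reference cells (x axis) for 18 named genes after Gm17268 that were higher in 10 of 10 libraries (y axis). Each point is 1 library, squares for batch 1 and circles for batch 2, blue for WT and red for KO, and black lines are medians, from 1.28 for Tnip1 to 0.63 for Fhod3.

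Chemokine genes outside the rule were scarce. The 20 that the files hold of 21 listed gave 191 UMIs in all the chosen cells, none passed the minimum, and their summed level was a median of 50.4 CPM against 16.6 CPM in the reference cells, higher in 10 of 10 libraries. Ccl5 was the most abundant (53 UMIs), and Cxcl10 gave 45 and Cxcl2 34. The 13 chemokine receptor genes gave 80 UMIs, 62 of them of the scavenging receptor gene Ackr3, at a summed 18.8 CPM against 22.8 CPM, and 7 receptor genes gave 0. Among the matrix and mesenchymal genes Spp1 was higher in 10 of 10 libraries and Vim (0.41) in 9. H2-D1 (0.24) was the 1 of 6 measured MHC class I genes, and Neat1 (0.48) the 1 of 6 nuclear noncoding RNA genes, higher in 10 of 10. None of the measured p53 targets (10 genes), heat shock genes (9), endoplasmic reticulum stress genes (7), hypoxia and glycolysis genes (22), oxidative stress genes (9), cytokine receptor genes (9) or further interferon genes (9) was higher or lower in 10 of 10 libraries. Since 1.51% and 0.882% of all genes were, lists of this size hold about none, and these counts say nothing particular of the lists. Summed over the list, further interferon genes were higher in 9 of 10 libraries (685 against 557 CPM), at a median log2 ratio of 0.24. Summed p53 targets (978 against 873 CPM) and cytokine receptor genes (1057 against 965 CPM) were higher in 10 of 10, at medians of 0.13 and 0.06. Summed heat shock, endoplasmic reticulum stress, hypoxia and glycolysis, and oxidative stress genes were higher in 3, 5, 7 and 8 libraries. Of 16 measured cell cycle genes outside the rule, Ccnd2 (-0.23) was lower in 10 of 10. The only other polo-like kinase gene measured had a log2 ratio of 0.15.

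Markers of other cells were looked for in the chosen cells. Neutrophil, B cell and T cell markers were at or near 0, with 5, 5 and 36 UMIs in all the chosen cells. The 18 myeloid markers, all with at least 1 UMI, gave 270 UMIs, Ctss the most (46), at a summed median of 67.2 CPM against 45.0 CPM, higher in 9 of 10 libraries. The 8 endothelial markers summed to a median of 26.5 against 26.6 CPM, but in the chosen cells of batch 1 to 128 CPM in WT and 161 CPM in KO, against 65.1 and 35.6 CPM in the reference cells there. The 6 pericyte markers, Acta2 the most abundant (137 UMIs), summed to a median of 29.2 against 31.0 CPM, and in batch 1 to 77.3 CPM in WT and 245 CPM in KO against 41.6 and 49.9 CPM. The part of these markers in the other differences was not tested. The 10 fibroblast markers, all with at least 1 UMI and Col1a1 the most abundant (1751 UMIs), summed to a median of 713 CPM against 384 CPM and were higher in 7 of 10 libraries. Their summed level was 1356 CPM in WT batch 1 and 2945 CPM in KO batch 1, against 348 and 154 CPM in the reference cells, and a median of 530.3 against 452 CPM in batch 2. At least 3 UMIs of Col1a2, Col3a1, Dcn and Lum were held by 15 chosen cells, 2 of 62 in WT batch 1, 6 of 42 in KO batch 1 and 7 of 2551 in batch 2. Without such cells, 67 genes were higher and 44 lower than in the reference cells in 10 of 10 libraries. Over all the chosen cells, 53 held neither an Esx1 nor a Pvt1 UMI.

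Between KO and WT, chosen cells were compared on counts summed per library by edgeR's quasi-likelihood test with batch as a term, adjusted by the Benjamini-Hochberg method over all 6494 genes tested. Of these, 2 genes, or 0.0308%, passed an adjusted p of 0.05, the matrix genes Postn and Bgn, both higher in KO. Postn had a log2 fold change of 2.84 (SE 0.41, adjusted p = 8.6e-04) and Bgn one of 2.17 (SE 0.41, adjusted p = 0.034). Postn gave 33 UMIs in WT batch 1, 214 in KO batch 1, 1 in WT 5, 2 in KO 4 and 0 in the other libraries. Bgn gave 30 in WT batch 1, 112 in KO batch 1, 1 each in KO 2+3 and KO 5+6 and 0 in the others. Both values thus rest on the single pair of batch 1, and there all 247 Postn UMIs and all 142 Bgn UMIs were in the 8 cells with fibroblast UMIs. Without cells of at least 3 fibroblast UMIs, without either library of batch 1, in batch 2 alone and by DESeq2, 0 genes passed. At an unadjusted p under 0.05 there were 260 genes by edgeR, 134 by DESeq2, 271 without the cells of fibroblast UMIs and 193 in batch 2 alone.

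The 5 genes chose the cells, so their KO to WT differences within these cells are a description with no test. In the chosen cells Ccl2 had a log2 fold change (KO over WT) of -0.07 (SE 0.21), Nfkbia of -0.09 (SE 0.17), Plk2 of 0.01 (SE 0.18), Ccl7 of -0.73 (SE 0.44) and Cxcl1 of -0.30 (SE 0.58). Without either library of batch 1, Ccl7 moved to -0.37 and -0.36 and Cxcl1 to -0.17. Ccl2 turned to 0.19 in batch 2 alone. Gm17268, which overlaps Ccl2, stood at 0.09 (SE 0.21). Tnip1, which the rule did not use, stood at -0.06 (SE 0.18, adjusted p = 1.0 by edgeR). No gene was lower in KO past the threshold, and the 3 with the smallest p were Ube2cbp (log2 fold change -1.04, SE 0.26), Spp1 (-1.31, SE 0.33) and Rapgef4 (-1.55, SE 0.41), each with an adjusted p of 0.40 by edgeR. Rapgef4 moved to -1.01 without either library of batch 1, where WT held 118 of its UMIs and KO 26. Of 16 listed NF-kB pathway genes tested, 0 passed, 6 had positive log2 fold changes and the median was -0.07, against -0.01 over all genes. Of 29 immediate early genes tested, 0 passed, 25 had positive log2 fold changes and the median was 0.21, against the same -0.01 over all genes. The difference of this list from all genes was not tested.

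Over all tumor cells, which the 5 genes did not choose, 0 of 12997 genes, or 0.0%, passed between KO and WT by edgeR, with 740 genes at an unadjusted p under 0.05, and 0 by DESeq2, with 612. There Ccl2 had a log2 fold change of 0.20 (SE 0.22, adjusted p = 0.92 by edgeR) and Nfkbia one of 0.08 (SE 0.18, adjusted p = 0.96). The 3 genes with the smallest p in each direction were Gm11335 (1.28), Ifit1 (0.92) and Cmpk2 (0.91), and BC018473 (-1.92), Lancl2 (-0.73) and Tbc1d8b (-0.55), each with an adjusted p of 0.85 by edgeR. BC018473 rests on WT batch 1, which held 248 of its UMIs against 0 to 52 in the other libraries, and its fold change was 0.15 without that library. The lean of the immediate early genes was also seen over all tumor cells, with 31 of 39 positive and a median of 0.13, against -0.002 over all genes. Of 22 further interferon genes, 22 were positive there (median 0.49), and 8 of 11 in the chosen cells (median 0.23). Of 23 NF-kB pathway genes, 15 were positive over all tumor cells (median 0.06). These lists were not tested against all genes.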

How the data were processed

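Single-cell RNA was measured in 10 libraries of dissociated E0771 tumors. Unnormalized UMI counts, over 31053 genes in every barcode, were what the authors deposited. They came per the labels from the 10x single cell 3′ v3 protocol and, per the submitters' processing notes, from Cell Ranger 7.1.0 on mm10. The study's integration and annotation were not used here. Groups, batches and pooling were taken from the labels and the methods. The limits of 200 to 7000 genes and 10% mitochondrial UMIs are those of the study, and the rule was applied to raw counts. Doublets were not removed. Macrophages, T cells and fibroblasts were named from fixed markers.

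Levels are CPM (counts per 1000000 UMIs) without Actb, which took up to 18.1% of UMIs. For the description, reference cells were weighted within each library to the depths of the chosen cells in bins of 0.5 log2, and 20 CPM was added before the log2 ratio. Up to 20 genes higher and 10 lower in 10 of 10 libraries were named by median log2 ratio, of which 1 is not reported here, and for KO against WT up to 10 per direction by adjusted p, or the 3 with the smallest p in a direction where none passed. Libraries with at least 10 chosen cells were summed and tested with edgeR 4.0.16 in R 4.3.3 (TMM, filterByExpr, quasi-likelihood), with DESeq2 1.42.0 as an alternative. Shares were compared by exact permutation within batches. Scripts were tested on simulated data. Gene positions are from GENCODE on mm10 and promoter windows from RefSeq on GRCm38.p6. The rule, its members and the gene lists were chosen with earlier results of these data known.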

Additional observations from a re-analysis of the deposited data

Results flagged for a closer look

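Values were looked at for a library far from the other 4 of its group, over 20 sets of 5 libraries, with the gap to the nearest library over the range above 0.71, which chance alone gives in about 1 in 20 sets. Of the 7 found, 6 were libraries of batch 1, which differs in depth and composition, and the part of these in the values was not tested. A minimum of 3 UMIs in cells of other depth sets the level of the genes of the rule, so for Ccl2, Cxcl1 and Gm17268, which overlaps Ccl2, these are a description and the chance share does not apply. Ccl2 in the chosen cells was lowest in KO batch 1 (128 CPM, against up to 4872 CPM in the group), as was Gm17268 (93.4 CPM, against up to 5644 CPM). Cxcl1 was highest in WT batch 1 (36.3 CPM) and KO batch 1 (29.2 CPM). The log2 ratio of Gm17268 to the reference cells was lowest in WT batch 1 (2.79) and KO batch 1 (2.50, and 1.29 without depth weights, which left out the 1 reference cell with Gm17268 UMIs there). The log2 ratio of Tnip1 was highest in KO 4 (1.63, against 1.19 at the lowest of the group).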

How the results depend on the processing

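The share of chosen cells stayed higher in KO and short of the threshold under 12 other settings (0.468 to 2.03 points) and without each library (0.194 to 2.87 points, or 0.404 to 1.82 within batches). The count of 2 genes called between KO and WT went to 0 by DESeq2, without a batch term, in batch 2 alone, with up to 1 immune UMI and without cells of at least 3 fibroblast UMIs (an alternative chosen after seeing the data), to 1 without the pooled KO libraries, to 33 with no low-count filter (34 over all tumor cells, where it was 0) and to between 0 and 5 without each library (0 without either of batch 1, 1 without WT 3, KO 2+3 or KO 5+6, 5 without WT 4 or WT 5). The replicate numbers 1 and 4 that WT and KO libraries share were not taken as pairs in the main settings. The deviations of same-numbered libraries correlated at -0.148 and -0.293, against -0.229 to 0.297 for libraries of different numbers. So few libraries cannot show whether the numbers paired them. A replicate block over replicates 1 and 4 and batch 1 gave a share difference of 0.468 points (exact permutation p = 0.75, smallest possible 0.25) and 1 gene called in the chosen cells. Its log2 fold changes were -0.22 for Gm17268 in the chosen cells, and -0.078 for Ccl2 and -0.17 for Nfkbia over all tumor cells. Several fold changes turned, those of the 5 genes and Gm17268 lying near 0. In the chosen cells these were Ccl2 (0.16 without a batch term, 0.19 in batch 2, -0.25 to 0.18 without each library), Nfkbia (0.10 in batch 2, -0.20 to 0.083), Plk2 (-0.018 with up to 1 immune UMI, -0.096 to 0.079, and 0.098 without KO 2+3) and Gm17268 (-0.069 without the pooled libraries, -0.076 to 0.31). Over all tumor cells, Ccl2 (-0.071) and Nfkbia (-0.088) turned without the pooled libraries, and Nfkbia (-0.015 to 0.26, and -0.055 without KO 2+3) and BC018473 (-2.03 to 0.15, and -2.04 without KO 5+6) without single libraries. The cause was not tested. In batch 2 alone, where 8 libraries have to share a direction in place of 10, 170 genes were higher and 212 lower than in the reference cells, and 99 were lower with reference cells free of the limits on proliferation and interferon genes. Depth limits what is said of Ccl7 and Cxcl1, with 55 and 6 UMIs in the chosen cells of batch 2, and the number of cells limits batch 1, which gave 104 chosen and 100 reference cells.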
